A study of Mus musculus with 14 samples.

Results

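The mitochondrial ribosomal protein genes were taken as every symbol made of Mrpl or Mrps, a number and optional letters, without pseudogene symbols, and averaging 1 FPKM or more over 14 libraries. The symbols matched 77 genes, of which 76 passed the minimum, out of 24463 genes listed. Of these 76 genes, 47 carry an Mrpl symbol and 29 an Mrps symbol. The only symbol below the minimum was Mrpl23, at a mean of 0.671 FPKM and between 0.163 and 1.13 FPKM in single libraries. The lowest gene above the minimum was Mrps36, at a mean of 2.30 FPKM. FPKM, a fragment count scaled by library size and by transcript length, allows for gene length, so levels may be set side by side between genes as far as the annotated lengths hold.

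RNA-seq was done on mouse cells that the study treats as leukaemic stem cells. Lineage-negative bone marrow cells were cultured with stem cell factor and thrombopoietin, infected 2 times, 24 h apart, with a retrovirus carrying p210 BCR-ABL, the fusion kinase of chronic myeloid leukaemia, and sorted 48 h after isolation as lineage-negative, c-Kit+, Sca1+ and GFP+. Every group carries this fusion, so the dKO and WT libraries differ in genotype and not in the fusion. The dKO group (n = 3) came from Tcf1/Lef1-deficient mice and was untreated. The PGE1 group (n = 3) and the PGE2 group (n = 2) came from control marrow and received 20 µM of prostaglandin E1 or prostaglandin E2 for 6 h. PGE1 lacks a double bond in its carboxyl side chain that PGE2 carries. The DMSO group (n = 3) is the vehicle control of both, and the WT group (n = 3) is untreated control marrow. No source used here gives the way the deletion was made, the age of the mice or any pooling of animals. Nor does one say that replicates are separate cultures, so p-values describe the spread among these libraries, which may be technical.

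The mitochondrial ribosome translates the few proteins that mitochondrial DNA encodes, all of them parts of the respiratory chain and ATP synthase. Its RNAs come from mitochondrial DNA, and its proteins are encoded in the nucleus, made in the cytosol and imported. Some of these proteins descend from bacterial ribosomal proteins and others occur only in mitochondria. Human chronic myeloid leukaemia stem cells have been reported to depend on mitochondrial respiration and to be sensitive to drugs that block mitochondrial translation.

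The libraries hold 11.3 to 13.4 M reads in genes in the treated groups and 19.05 to 20.6 M in the untreated groups, as recovered from the whole-read steps of the FPKM values. The member with the fewest reads had 13 in its lowest library, and the median member had 458.5 in its lowest library. Tcf7, which encodes Tcf1, averaged 0.0996 ± 0.0674 FPKM in dKO and 1.31 ± 0.167 FPKM in WT libraries, and Lef1 averaged 0.151 ± 0.0411 FPKM in dKO and 0.283 ± 0.0524 FPKM in WT libraries (SD, n = 3 each). Both gave an exact two-sided permutation p of 0.1, the smallest that 3 against 3 allows. Groups follow the titles, although dKO replicate 1 carries a wild-type and DMSO replicate 1 a deficient genotype field. Tcf7 was at most 0.142 FPKM in every dKO library and at least 1.15 FPKM in every WT library, so dKO replicate 1 matches its title. The spread between 2 libraries of a group, over what counting alone gives, was 6.06 and 6.31 in the pairs with dKO replicate 1 and 3.44 in the other dKO pair. It was 11.1 and 11.3 in the pairs with PGE1 replicate 2 against 4.69, and 5.11 and 5.59 in the pairs with DMSO replicate 1 against 1.64. Kit and Ly6a, the genes of the sort markers, averaged above 1 FPKM in every group, and the 5 T cell markers summed to at most 1.67 FPKM in any library. The Y-linked genes Ddx3y, Eif2s3y, Kdm5d and Uty were at 0 in all dKO libraries and summed to between 26.1 and 30.9 FPKM in the WT libraries, so genotype and sex of the mice cannot be told apart. They summed to 26.2 to 29.3 FPKM in the DMSO libraries, so DMSO replicate 1 was unlike the dKO libraries in these genes.

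The summed level of the 76 genes was highest in dKO and lowest after PGE1. It was 2592, 2776 and 2865 FPKM in the dKO libraries, 1667, 1973 and 1592 FPKM in the PGE1 libraries, 2105 and 2114 FPKM in the PGE2 libraries, 2186, 1882 and 1868 FPKM in the DMSO libraries, and 2434, 2492 and 2413 FPKM in the WT libraries. All dKO sums lay above all WT sums, the PGE1 and DMSO sums overlapped through PGE1 replicate 2, and both PGE2 sums lay inside the DMSO range. The genes took 0.473 to 0.523% of reads in genes in dKO, 0.295 to 0.355% in PGE1, 0.392% in both PGE2, 0.351 to 0.403% in DMSO and 0.444 to 0.457% in WT libraries. The dKO mean was the highest of the 5 group means for 68 of 76 genes, and the PGE1 mean was the lowest for 58 of 76. In bulk samples, fewer cells that express a gene and less of its RNA per cell cannot be told apart.

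**Figure D1:**
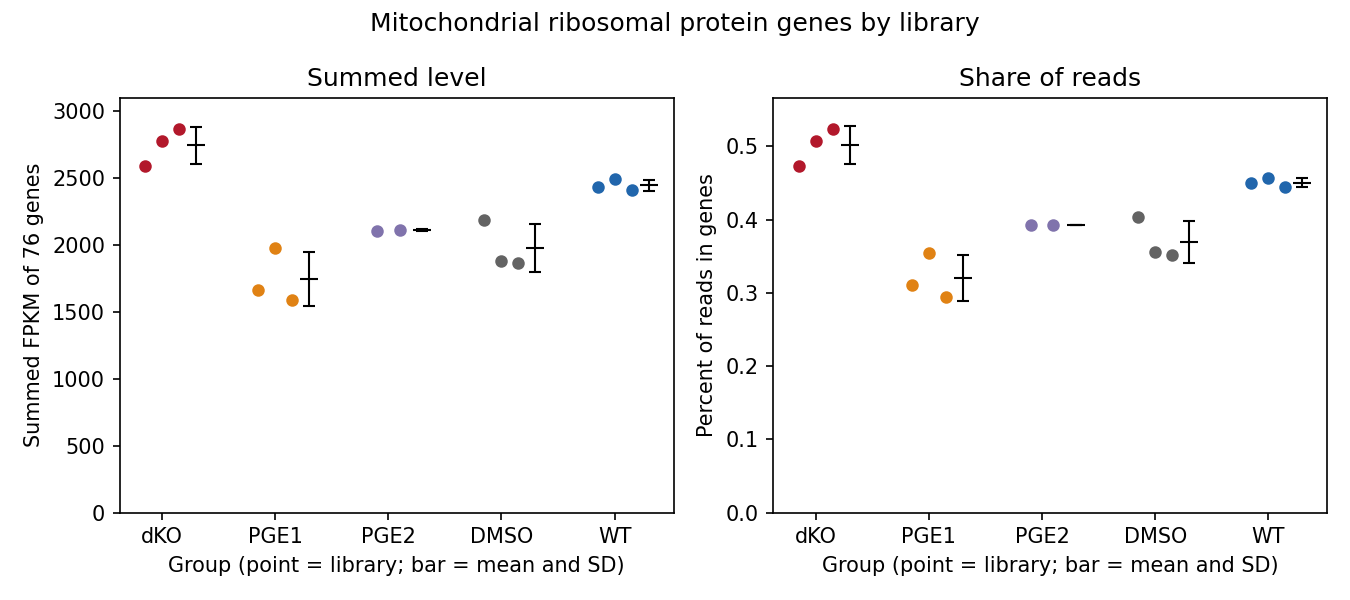
Summed FPKM of the 76 mitochondrial ribosomal protein genes (left) and their percent of reads in genes (right), by group. Points are libraries and black bars the mean and SD. The dKO libraries, at 2592 to 2865 FPKM, lie above the WT libraries, at 2413 to 2492 FPKM, and the lowest sums are PGE1 replicates 3 and 1, at 1592 and 1667 FPKM.

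By their place in the ribosome, 49 of the genes encode large-subunit proteins, 26 small-subunit proteins and 1, Mrps36, a protein that structures place outside the ribosome. Mrps30 and Mrps18a, in spite of their symbols, encode the large-subunit proteins mL65 and mL66. Bacterial homologs are 45 of the 75 ribosomal genes and the other 30 are specific to mitochondria. Large-subunit genes summed to 1836 ± 87.0 FPKM in dKO, 1179 ± 133 in PGE1, 1418 ± 9.39 in PGE2, 1321 ± 119 in DMSO and 1637 ± 27.0 in WT libraries (SD, n = 3, 2 for PGE2). Small-subunit genes summed to 905 ± 52.0 FPKM in dKO, 563 ± 69.8 in PGE1, 689 ± 3.23 in PGE2, 656 ± 60.5 in DMSO and 807 ± 14.1 in WT libraries. The order of the groups was the same for both subunits. The highest mean levels over the 14 libraries were 78.6 FPKM for Mrpl12, 69.5 for Mrpl20 and 69.2 for Mrpl33. The lowest were 2.30 FPKM for Mrps36, 4.003 for Mrps33 and 6.28 for Mrpl17. These ranks depend on the lengths used for FPKM. Mrpl17, at a recovered length of 6712 bases, had 458 to 1922 reads per library. Mrpl13, at 786 bases and a mean of 43.5 FPKM, had 398 to 1652.

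Promoters are printed for 6 of the genes named in the comparisons: Mrpl12 and Mrpl42, which fell most after PGE1, Mrps18b, which also fell strongly, Mrpl9, which was higher both after PGE1 and in dKO, and Mrpl22 and Mrpl32, which were higher in dKO. Mrpl19, which had the largest rise in dKO, is not among them. Each run holds 250 bases before and 50 bases after the RefSeq start, 5′ to 3′ on the gene's strand, on build GRCm38.p6. Capitals mark matches to the core of the NRF1 motif, CGCATGCG, or to the YY1 motif, AAGATGGCG, on either strand. NRF1 and YY1 are transcription factors known to bind promoters of nuclear genes for mitochondrial proteins.
Mrpl12, chr11:120484387-120484686, + strand: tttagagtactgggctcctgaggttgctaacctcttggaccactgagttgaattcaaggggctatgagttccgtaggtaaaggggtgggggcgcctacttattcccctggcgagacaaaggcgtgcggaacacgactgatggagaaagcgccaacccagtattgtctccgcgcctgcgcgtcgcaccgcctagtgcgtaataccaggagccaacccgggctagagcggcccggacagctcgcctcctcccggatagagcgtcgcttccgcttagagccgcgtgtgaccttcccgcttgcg
Mrpl42, chr10:95501900-95502199, - strand: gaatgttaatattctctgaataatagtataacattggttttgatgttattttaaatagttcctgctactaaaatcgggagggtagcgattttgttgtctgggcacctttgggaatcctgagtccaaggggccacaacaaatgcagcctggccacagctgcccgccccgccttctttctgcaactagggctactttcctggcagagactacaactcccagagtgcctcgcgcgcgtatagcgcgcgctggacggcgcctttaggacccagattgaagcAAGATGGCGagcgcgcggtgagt
Mrps18b, chr17:35916391-35916690, - strand: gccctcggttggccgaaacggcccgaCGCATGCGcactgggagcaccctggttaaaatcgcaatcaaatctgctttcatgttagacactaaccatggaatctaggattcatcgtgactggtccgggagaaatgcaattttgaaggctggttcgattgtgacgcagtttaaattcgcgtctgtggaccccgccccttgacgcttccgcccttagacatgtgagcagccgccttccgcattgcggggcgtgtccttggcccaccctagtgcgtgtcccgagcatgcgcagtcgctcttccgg
Mrpl9, chr3:94443086-94443385, + strand: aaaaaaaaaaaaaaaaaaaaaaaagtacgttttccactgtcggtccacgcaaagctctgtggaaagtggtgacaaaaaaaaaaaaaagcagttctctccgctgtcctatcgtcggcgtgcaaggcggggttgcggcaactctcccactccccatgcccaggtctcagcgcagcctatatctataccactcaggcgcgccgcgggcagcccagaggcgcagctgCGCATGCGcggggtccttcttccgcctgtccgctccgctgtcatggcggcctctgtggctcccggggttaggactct
Mrpl22, chr11:58171414-58171713, + strand: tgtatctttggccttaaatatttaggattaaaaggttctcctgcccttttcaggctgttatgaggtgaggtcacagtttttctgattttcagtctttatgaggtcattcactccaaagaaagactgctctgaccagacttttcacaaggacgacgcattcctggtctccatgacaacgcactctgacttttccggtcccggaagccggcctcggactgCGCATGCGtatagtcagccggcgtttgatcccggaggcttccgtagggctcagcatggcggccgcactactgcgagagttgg
Mrpl32, chr13:14612988-14613287, - strand: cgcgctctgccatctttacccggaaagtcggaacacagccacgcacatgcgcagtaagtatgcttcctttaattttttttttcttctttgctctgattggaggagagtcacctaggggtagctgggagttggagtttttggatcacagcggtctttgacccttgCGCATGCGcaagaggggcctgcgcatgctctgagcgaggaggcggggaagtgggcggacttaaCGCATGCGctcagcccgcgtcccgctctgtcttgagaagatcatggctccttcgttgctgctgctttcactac
A match is a description of letters and shows no binding. Of the printed windows, those of Mrps18b, Mrpl9, Mrpl22 and Mrpl32 hold the NRF1 core. Among all 67 members with a promoter only 7 (10.4%) hold it, so the printed windows are not typical of the family. The Mrpl12 window holds none of the 5 motifs searched (these and CCGGAAGT, CACGTG and TATAAA), Mrpl42 has the YY1 letters after its start, and Mrpl32 has the NRF1 core 2 times.

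In dKO against WT, mitochondrial ribosomal protein genes were more often higher than lower. At an adjusted p below 0.05 (limma on log2(FPKM + 1), adjusted over 10721 genes), 38 of the 76 genes were higher in dKO, where 18% of all genes tested were, and 2 were lower, where 22.9% of all genes were. Their median log2 difference was 0.17, against -0.01 over all genes tested, and 70 of 76 differences were above 0, against 5180 of 10721. All dKO libraries lay above all WT libraries in 45 of the 76 genes and below them in 2, against 2710 and 3172 of 10721. In this and later comparisons, the genes named for the largest changes were picked for such a lack of overlap. Of the large-subunit genes 27 of 49 were higher and 2 lower, with a median of 0.18, and of the small-subunit genes 11 of 26 were higher and none lower, with a median of 0.16. Bacterial homologs gave 22 of 45 higher (median 0.17) and mitochondria-specific genes 16 of 30 higher (median 0.17). The number of higher genes was 18 without WT replicate 3 and 20 without WT replicate 1, where 11.3% of all genes were higher in either fit. It was 22 without dKO replicate 3 (13.2% of all genes), 23 without dKO replicate 2 (14.4%) and 24 without WT replicate 2 (12.2%). It was 55 without dKO replicate 1, the library with the wild-type genotype field, where 22.8% of all genes were higher. After quantile normalization, 26% of all genes were higher and 17.2% lower in dKO, and 35 of the 76 genes were higher and 3 lower. The median log2 difference was then 0.14 for these genes, against 0.06 over all genes, a smaller gap than in the main fit. With a minimum of 5 FPKM, 39 of 74 members were higher and 2 lower, where 23.6% of all genes were higher and 19.6% lower.

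Among genes of the large subunit, Mrpl19, a bacterial homolog (bL19m), had the largest rise in dKO. Mrpl19 stood at 16.7, 16.6 and 17.8 FPKM in the dKO libraries, against 12.3, 12.6 and 12.4 FPKM in the WT libraries (log2 difference 0.42 ± 0.04 SE, adjusted p = 2.66e-04). The groups did not overlap, and the mean was 1.37-fold that of WT. GENCODE exons of Gcfc2, on the opposite strand, cover 36% of the Mrpl19 exon bases, and Gcfc2 itself had a log2 difference of -0.11 (adjusted p = 0.313).

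Mrpl12 encodes bL12m, the stalk protein that draws translation factors to the ribosome. It stood at 108, 122 and 131 FPKM in the dKO libraries, against 92.2, 95.5 and 91.5 FPKM in the WT libraries (log2 difference 0.37 ± 0.07 SE, adjusted p = 0.00455), 1.30-fold the WT mean. All dKO libraries were above all WT libraries. Mrpl11, which encodes uL11m at the base of the same stalk, stood at 12.8, 14.5 and 14.5 FPKM in the dKO libraries, against 12.8, 12.5 and 11.1 FPKM in the WT libraries. The lowest dKO library stood just above the highest WT library, and the gene did not pass the test (log2 difference 0.19 ± 0.07 SE, adjusted p = 0.0644).

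Mrpl22 and Mrpl47 encode uL22m and uL29m, relatives of bacterial proteins around the exit of the peptide tunnel. Mrpl22 stood at 17.5, 17.2 and 19.2 FPKM in the dKO libraries, against 14.8, 14.2 and 14.6 FPKM in the WT libraries (log2 difference 0.29 ± 0.05 SE, adjusted p = 0.00311). Mrpl47 stood at 18.9, 21.7 and 21.9 FPKM in the dKO libraries, against 15.8, 17.7 and 17.4 FPKM in the WT libraries (log2 difference 0.28 ± 0.07 SE, adjusted p = 0.0158). In both genes every dKO library was above every WT library. A processed pseudogene, Gm6997, is 97.1% identical to Mrpl22 over 621 bases, so its count is uncertain, and the Mrpl47 call did not hold without WT replicate 1 (adjusted p = 0.0586) or dKO replicate 3 (adjusted p = 0.0549). Mrpl18, a relative of the bacterial protein that binds the small rRNA of the large subunit, stood at 75.3, 82.4 and 80.7 FPKM in the dKO libraries, against 67.5, 64.3 and 64.6 FPKM in the WT libraries (log2 difference 0.28 ± 0.04 SE, adjusted p = 0.00226). Tcp1, on the opposite strand, covers 10.1% of the Mrpl18 exon bases and rose too (log2 difference 0.26, adjusted p = 5.07e-04). Mrpl46, mL46 and specific to mitochondria, stood at 26.9, 28.4 and 29.4 FPKM in the dKO libraries, against 22.4, 22.4 and 21.98 FPKM in the WT libraries (log2 difference 0.33 ± 0.04 SE, adjusted p = 8.38e-04). It shares 12.2% of its exon bases with Mrps11 on the opposite strand, itself a member that rose (log2 difference 0.25, adjusted p = 0.00912).

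Mrpl32, whose protein is cleaved by the mitochondrial m-AAA protease before it joins the ribosome, stood at 24.4, 29.8 and 30.9 FPKM in the dKO libraries, against 23.9, 24.3 and 21.01 FPKM in the WT libraries (log2 difference 0.28 ± 0.09 SE, adjusted p = 0.0437). This call did not hold when any library but dKO replicate 1 was left out (adjusted p from 0.07 without WT replicate 2 to 0.14 without WT replicate 3), nor with no minimum level (adjusted p = 0.0863), without the intensity trend (0.0596) or with the replicate block (0.0603). In the small subunit, Mrps12, whose bacterial relative sits at the decoding centre, stood at 61.8, 63.6 and 67.7 FPKM in the dKO libraries, against 51.6, 57.6 and 50.7 FPKM in the WT libraries (log2 difference 0.27 ± 0.06 SE, adjusted p = 0.00902). Its groups did not overlap.

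The 2 genes lower in dKO were Mrpl52 and Mrpl4. Mrpl52, which encodes the mitochondria-specific protein mL52, stood at 23.6, 23.04 and 20.2 FPKM in the dKO libraries, against 26.7, 30.3 and 30.97 FPKM in the WT libraries (log2 difference -0.38 ± 0.07 SE, adjusted p = 0.00547), so the WT mean was 1.32-fold the dKO mean. Mrpl4 (uL4m, a lining of the peptide tunnel in bacteria) stood at 25.99, 27.6 and 29.4 FPKM in the dKO libraries, against 32.1, 31.7 and 29.6 FPKM in the WT libraries (log2 difference -0.16 ± 0.05 SE, adjusted p = 0.0447). It did not pass after median-of-ratios scaling (adjusted p = 0.0599), with no minimum level (0.0678), without the intensity trend (0.0657) or with the replicate block (0.0866), nor with WT replicate 1 (adjusted p = 0.143), WT replicate 2 (0.128), dKO replicate 1 (0.07) or dKO replicate 2 (0.0922) left out.

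**Figure D2:**
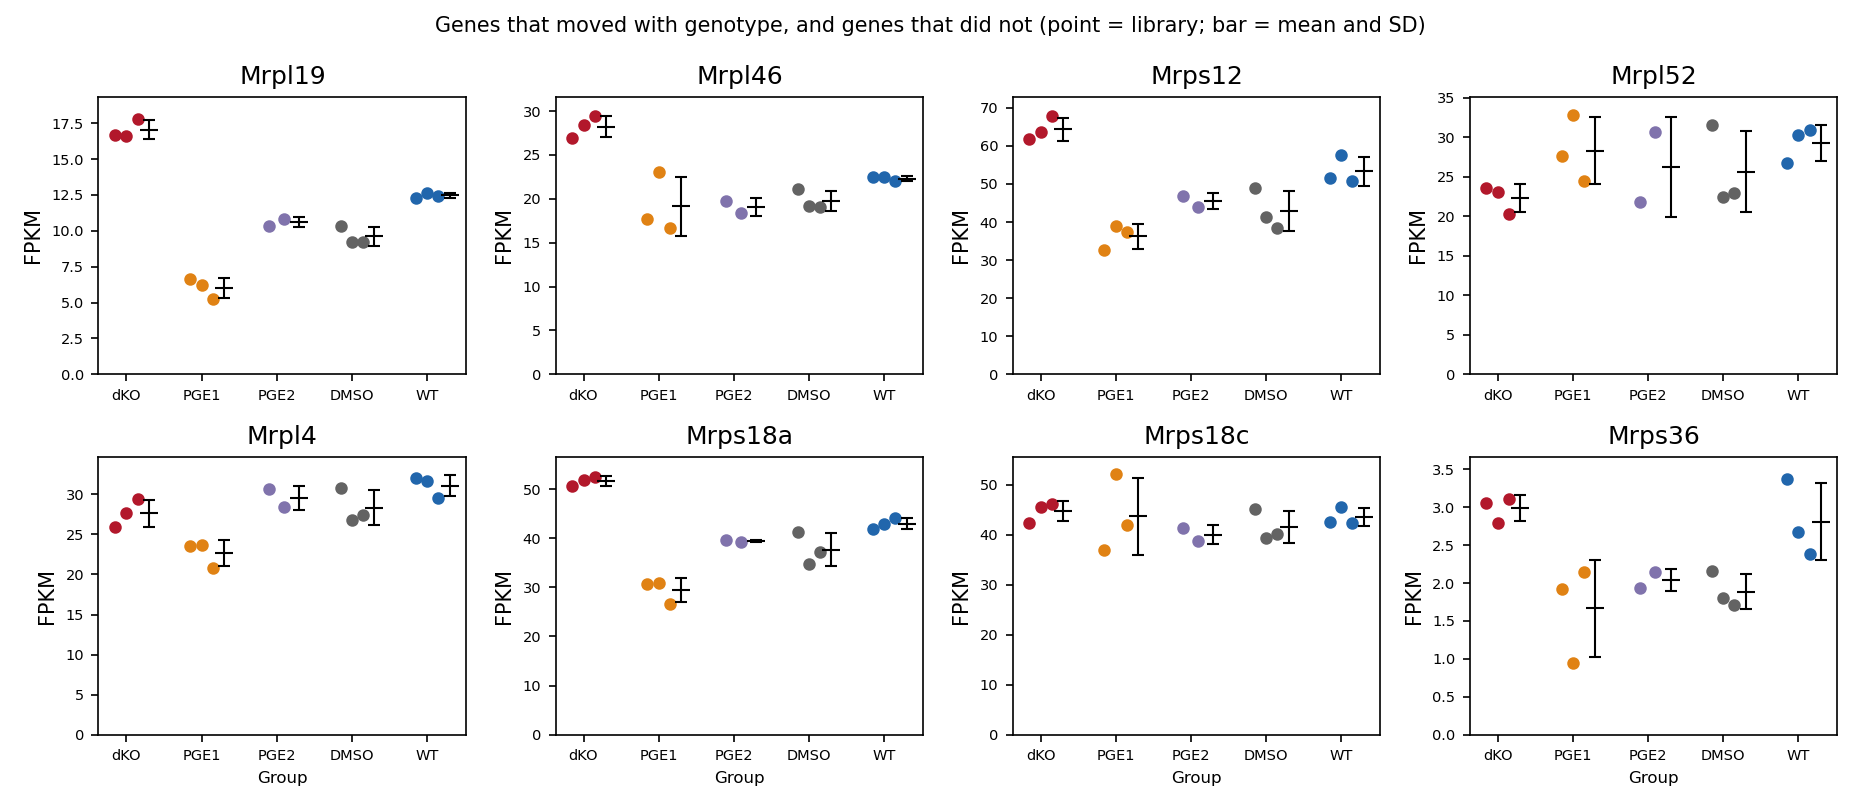
FPKM by group of 8 genes named in the comparison of dKO with WT. Points are libraries and black bars the mean and SD. Mrpl19, Mrpl46 and Mrps12 are higher in every dKO than in every WT library, Mrpl52 and Mrpl4 are lower in every dKO library, and Mrps18c and Mrps36 overlap between dKO and WT.

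Other genes of mitochondrial translation were read from lists, whose counts stand beside the 18% of all genes that were higher and the 22.9% that were lower. Of 6 mitoribosome genes with other names, 3 were higher in dKO and none lower, with a median log2 difference of 0.19. Gadd45gip1, which encodes a large-subunit protein, averaged 44.4 ± 3.33 FPKM in dKO and 36.4 ± 0.683 FPKM in WT libraries, adjusted p = 0.00597 (SD, n = 3 each). Ptcd3, of the small subunit, averaged 22.95 ± 1.22 FPKM in dKO and 19.7 ± 0.583 FPKM in WT libraries, adjusted p = 0.0123. Ict1, a peptidyl-tRNA hydrolase built into the large subunit, averaged 39.2 ± 3.49 FPKM in dKO and 33.3 ± 0.597 FPKM in WT libraries, adjusted p = 0.0211. Of 18 translation factor genes, 5 were higher and 1 lower (median 0.07). The elongation factor genes Gfm1 (33.2 ± 1.70 FPKM in dKO and 28.1 ± 0.260 FPKM in WT libraries, adjusted p = 0.00526) and Tsfm (35.3 ± 2.02 FPKM in dKO and 29.7 ± 0.795 FPKM in WT libraries, adjusted p = 0.00684) were higher. Metap1d, a mitochondrial methionine aminopeptidase, was lower (4.01 ± 0.171 FPKM in dKO and 7.005 ± 1.20 FPKM in WT libraries, adjusted p = 0.00177). Of 26 assembly and rRNA modification genes, 6 were higher and 1 lower (median 0.12), with Mpv17l2, an assembly factor, higher (32.1 ± 1.23 FPKM in dKO and 25.7 ± 1.86 FPKM in WT libraries, adjusted p = 0.00437). Afg3l2, a subunit of the m-AAA protease, was higher (34.2 ± 0.906 FPKM in dKO and 29.4 ± 1.34 FPKM in WT libraries, adjusted p = 0.00782) and Ddx28, an RNA helicase of large-subunit assembly, was lower (12.9 ± 0.771 FPKM in dKO and 15.1 ± 0.385 FPKM in WT libraries, adjusted p = 0.0123). Of 17 genes of mitochondrial DNA and RNA upkeep, 6 were higher and 2 lower (median 0.14). Hsd17b10, a subunit of mitochondrial RNase P, was lower (52.9 ± 0.647 FPKM in dKO and 68.4 ± 2.28 FPKM in WT libraries, adjusted p = 2.59e-04) and Supv3l1, a mitochondrial RNA helicase, was higher (17.8 ± 0.814 FPKM in dKO and 13.8 ± 0.776 FPKM in WT libraries, adjusted p = 0.00212). Polg2, the accessory subunit of the mitochondrial DNA polymerase, was lower (1.86 ± 0.200 FPKM in dKO and 2.69 ± 0.208 FPKM in WT libraries, adjusted p = 0.00902). Of 13 nuclear regulators tested, 2 were higher, namely Myc (123 ± 4.38 FPKM in dKO and 100.03 ± 1.62 FPKM in WT libraries, adjusted p = 8.22e-04) and Esrra (18.9 ± 1.17 FPKM in dKO and 16.6 ± 0.428 FPKM in WT libraries, adjusted p = 0.0349), and none was lower. The genes that mitochondrial DNA encodes are not analysed here.

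Markers moved with genotype beside these genes. Of 12 cycling markers, 9 were higher and none lower in dKO, and their sum was 968 to 1000 FPKM in dKO and 870 to 874 FPKM in WT libraries. Of 16 monocyte and macrophage markers, 15 were lower in dKO and none higher, with sums of 452 to 544 FPKM in dKO and 1227 to 1276 FPKM in WT libraries. Of 9 neutrophil and granule markers tested, 4 were higher and 4 lower, with sums of 9337 to 9483 FPKM in dKO and 6935 to 7274 FPKM in WT libraries. The sort markers and other LSK genes summed to 98.1 to 102 FPKM in dKO and 144 to 148 FPKM in WT libraries, and 5 of 6 were lower in dKO. Of 6 erythroid markers tested, 1 was higher and 3 lower; the 9 listed summed to 139 to 142 FPKM in dKO and 100.6 to 108 FPKM in WT libraries, most of it from the transferrin receptor gene Tfrc, which averaged 132 ± 1.35 FPKM over the dKO libraries and 87.7 ± 4.06 FPKM over those of WT (SD, n = 3 each). The part of these marker differences in the ribosomal protein genes was not tested.

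In PGE1 against DMSO, 30 of the 76 mitochondrial ribosomal protein genes were lower after PGE1, where 25.5% of 11242 genes tested were, and 4 were higher, where 23.6% were. The median log2 difference was -0.22, against 0.01 over all genes, and 61 of 76 differences were below 0, against 5555 of 11242. All PGE1 libraries lay below all DMSO libraries in 30 of the 76 genes and above them in 6, against 3288 and 3139 of 11242. Large-subunit genes gave 20 of 49 lower and 3 higher (median -0.21), and small-subunit genes 10 of 26 lower and 1 higher (median -0.24). Bacterial homologs gave 22 of 45 lower and 3 higher (median -0.30), and mitochondria-specific genes 8 of 30 lower and 1 higher (median -0.19). The difference between these classes was not tested. The number of lower genes was 46 without PGE1 replicate 2, where 28.9% of all genes were lower. It was 20 of 76 without DMSO replicate 1, near the 21.6% of all genes lower in that fit, and 4 genes were higher, where 20.2% of all genes were. Without both libraries, an alternative chosen after seeing the data, it was 42, where 27.7% of all genes were lower.

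Mrpl12 fell most. It stood at 36.2, 36.7 and 28.98 FPKM in the PGE1 libraries, against 73.2, 64.1 and 62.4 FPKM in the DMSO libraries (log2 difference -0.96 ± 0.10 SE, adjusted p = 9.83e-05). Every PGE1 library was below every DMSO library, and the DMSO mean was 1.96-fold the PGE1 mean. Mrpl11, its neighbour in the stalk, stood at 6.39, 8.62 and 5.71 FPKM in the PGE1 libraries, against 10.6, 8.92 and 8.06 FPKM in the DMSO libraries, overlapped between the groups and did not pass the test (log2 difference -0.37 ± 0.14 SE, adjusted p = 0.0522). In PGE1 against PGE2, Mrpl11 was lower (log2 difference -0.46, adjusted p = 0.0352). That call did not hold without PGE1 replicate 1 (adjusted p = 0.0858) or PGE1 replicate 3 (0.0934), nor with the replicate block (0.0688). Mrpl11 was also lower in DMSO against WT (log2 difference -0.37, adjusted p = 0.00988).

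Mrpl42, which encodes the mitochondria-specific large-subunit protein mL42, stood at 14.5, 12.8 and 10.3 FPKM in the PGE1 libraries, against 27.8, 22.3 and 24.7 FPKM in the DMSO libraries (log2 difference -0.95 ± 0.12 SE, adjusted p = 2.63e-04). Its groups did not overlap. A processed pseudogene, Gm6419, is 96.3% identical to it over 429 bases, so the count is uncertain to that extent. Mrpl20 and Mrpl19 encode the bacterial homologs bL20m and bL19m. Mrpl20 stood at 41.96, 50.4 and 32.8 FPKM in the PGE1 libraries, against 69.95, 59.4 and 59.2 FPKM in the DMSO libraries (log2 difference -0.60 ± 0.14 SE, adjusted p = 0.00706). Mrpl19 stood at 6.62, 6.21 and 5.25 FPKM in the PGE1 libraries, against 10.4, 9.23 and 9.22 FPKM in the DMSO libraries (log2 difference -0.60 ± 0.09 SE, adjusted p = 6.80e-04), while Gcfc2, which overlaps it, had a log2 difference of 0.00 (adjusted p = 0.999). Mrpl15 (uL15m) stood at 7.02, 8.01 and 6.10 FPKM in the PGE1 libraries, against 11.9, 10.6 and 10.3 FPKM in the DMSO libraries (log2 difference -0.58 ± 0.10 SE, adjusted p = 0.00124). In each of these genes all PGE1 libraries were below all DMSO libraries.

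In the small subunit, Mrps18b (mS40) stood at 10.01, 12.02 and 7.73 FPKM in the PGE1 libraries, against 20.7, 16.6 and 15.4 FPKM in the DMSO libraries (log2 difference -0.78 ± 0.15 SE, adjusted p = 0.00316). Mrps28, which encodes bS1m, stood at 19.1, 18.1 and 16.01 FPKM in the PGE1 libraries, against 32.8, 28.00 and 29.1 FPKM in the DMSO libraries (log2 difference -0.73 ± 0.08 SE, adjusted p = 1.73e-04). Mrps5 (uS5m), whose bacterial relative lines the mRNA entry, stood at 9.73, 7.58 and 7.23 FPKM in the PGE1 libraries, against 12.7, 12.5 and 12.1 FPKM in the DMSO libraries (log2 difference -0.56 ± 0.10 SE, adjusted p = 0.00162). None of the 3 genes overlapped between PGE1 and DMSO. A processed pseudogene matches Mrps5 at 98.4% over 1019 bases, and the antisense gene Gm16279 matches Mrps18b at 100% over 579 bases, which without strand cannot be told apart from it.

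The 4 genes that were higher after PGE1 were Mrpl14, Mrpl9, Mrpl24 and Mrps25. Mrpl14 encodes uL14m, to which assembly factors bind in human mitochondria, and stood at 51.9, 67.9 and 60.5 FPKM in the PGE1 libraries, against 48.02, 41.3 and 38.8 FPKM in the DMSO libraries (log2 difference 0.48 ± 0.11 SE, adjusted p = 0.00625). Mrpl9 (bL9m) stood at 39.2, 46.1 and 42.5 FPKM in the PGE1 libraries, against 33.6, 31.8 and 30.4 FPKM in the DMSO libraries (log2 difference 0.40 ± 0.07 SE, adjusted p = 0.00185). Mrpl24 (uL24m) stood at 56.3, 69.8 and 57.1 FPKM in the PGE1 libraries, against 52.6, 47.1 and 44.7 FPKM in the DMSO libraries (log2 difference 0.33 ± 0.09 SE, adjusted p = 0.0177), which did not pass without DMSO replicate 2 (adjusted p = 0.0573) or DMSO replicate 3 (adjusted p = 0.0685). Mrps25 (mS25) stood at 9.43, 9.69 and 9.41 FPKM in the PGE1 libraries, against 8.42, 8.05 and 8.20 FPKM in the DMSO libraries (log2 difference 0.19 ± 0.06 SE, adjusted p = 0.0293), which did not pass without DMSO replicate 2 (adjusted p = 0.103), DMSO replicate 3 (0.0831), PGE1 replicate 3 (0.053) or either PGE2 library (0.0532 and 0.0529), nor with the replicate block (0.0637). In all 4 genes every PGE1 library was above every DMSO library.

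In the GENCODE annotation all 4 of these genes share exon bases with a coding gene on the opposite strand. Of the 76 genes, 23 share exon bases with a coding gene on either strand. Nr2c2 covers 69.8% of the Mrps25 exon bases and was itself higher after PGE1 (log2 difference 0.60, adjusted p = 0.00406). Tmem63b covers 11.2% of Mrpl14 and was higher (log2 difference 0.46, adjusted p = 7.69e-04). Rrnad1 covers 26.3% of Mrpl24 and did not pass (log2 difference 0.18, adjusted p = 0.143). Oaz3 covers 5.81% of Mrpl9. No source used here says whether the counting used strand, so reads from the shared bases cannot be assigned to 1 gene. The annotation used for counting is not given either. The shares of exon bases stated here and elsewhere may therefore differ in the gene models that were counted.

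**Figure D3:**
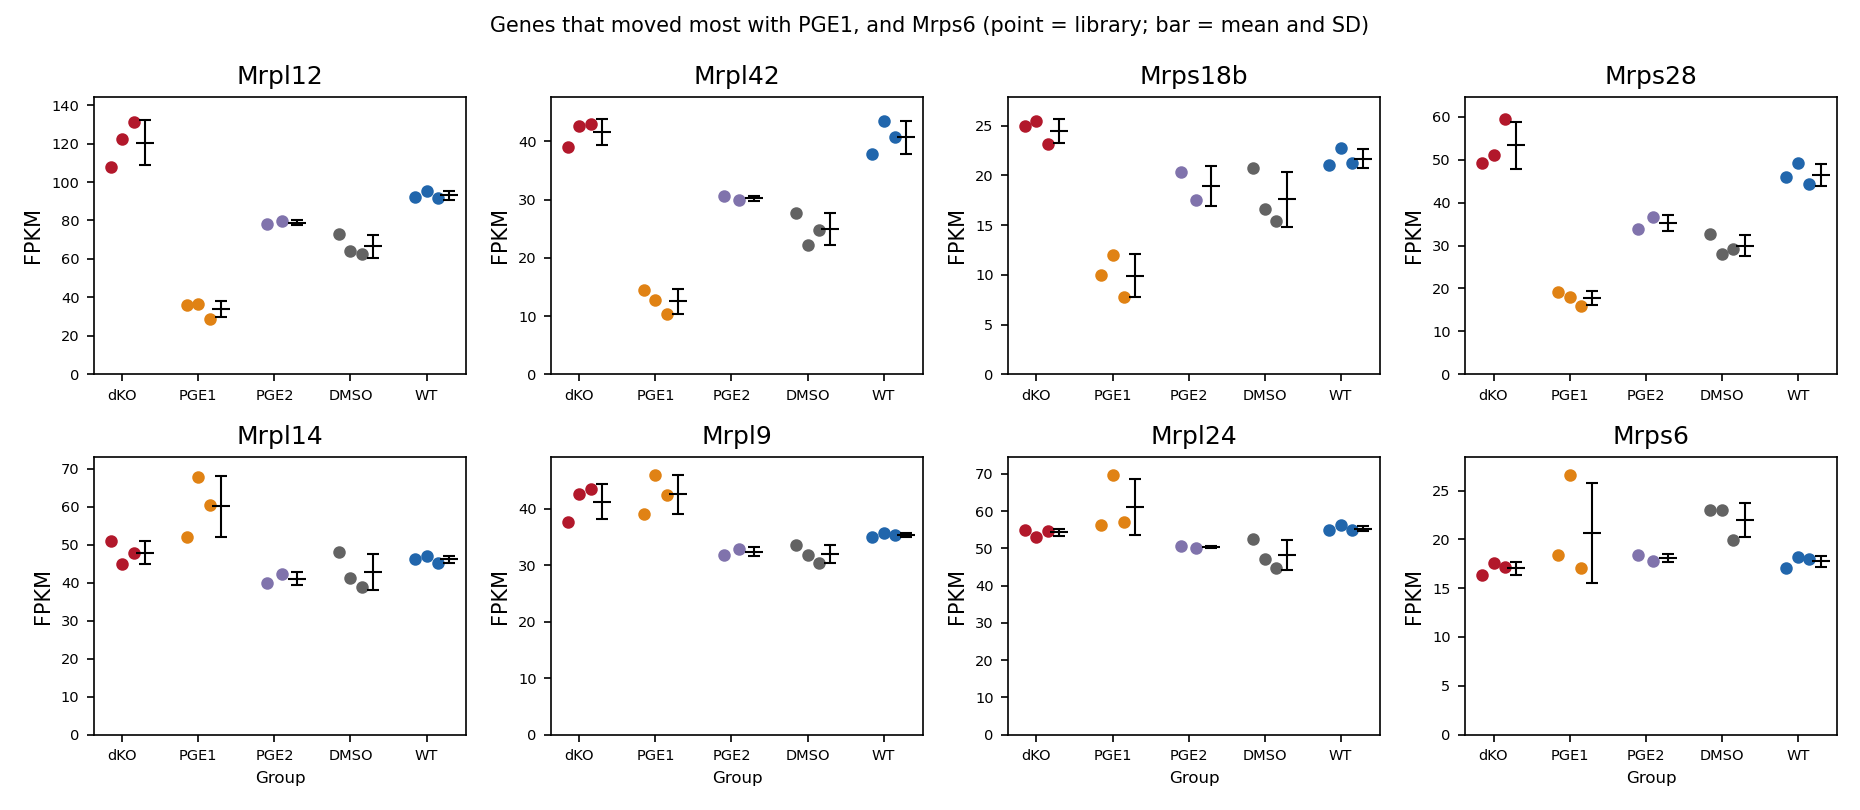
FPKM by group of 8 genes named in the comparisons of the treated cells. Points are libraries and black bars the mean and SD. Mrpl12, Mrpl42, Mrps18b and Mrps28 are lower in every PGE1 than in every DMSO or PGE2 library, Mrpl14, Mrpl9 and Mrpl24 are higher in every PGE1 than in every DMSO library, and Mrps6 is higher in every DMSO than in every WT library.

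Of the surrounding pathway, part of the genes fell after PGE1, and the counts stand beside the 25.5% of all genes that were lower and the 23.6% that were higher. Of 6 mitoribosome genes with other names, 3 were lower and none higher, with a median log2 difference of -0.26. Ptcd3 averaged 8.27 ± 1.15 FPKM in PGE1 and 14.05 ± 0.385 FPKM in DMSO libraries, adjusted p = 3.01e-04 (SD, n = 3 each), and Chchd1, of the small subunit, averaged 28.8 ± 1.69 FPKM in PGE1 and 38.5 ± 4.88 FPKM in DMSO libraries, adjusted p = 0.00805. Gadd45gip1 averaged 22.7 ± 0.902 FPKM in PGE1 and 29.5 ± 3.70 FPKM in DMSO libraries, adjusted p = 0.00855. Of 18 translation factor genes, 6 were lower and 1 higher (median -0.21). Gfm1, the elongation factor that moves the ribosome along the mRNA, averaged 12.95 ± 0.966 FPKM in PGE1 and 21.9 ± 0.815 FPKM in DMSO libraries, adjusted p = 6.54e-05. Lrpprc, which stabilises mitochondrial mRNAs, averaged 10.5 ± 1.06 FPKM in PGE1 and 16.5 ± 0.108 FPKM in DMSO libraries, adjusted p = 2.18e-04. Pdf, the peptide deformylase, averaged 11.5 ± 1.89 FPKM in PGE1 and 17.5 ± 1.255 FPKM in DMSO libraries, adjusted p = 0.00272. Of 26 assembly and rRNA modification genes, 8 were lower and 2 higher (median -0.10), with Wbscr16 (5.47 ± 0.678 FPKM in PGE1 and 10.7 ± 0.154 FPKM in DMSO libraries, adjusted p = 6.31e-05), Fastkd2 (2.94 ± 0.376 FPKM in PGE1 and 5.25 ± 0.272 FPKM in DMSO libraries, adjusted p = 3.63e-04) and Rnmtl1, an rRNA methyltransferase (2.69 ± 0.367 FPKM in PGE1 and 5.57 ± 0.484 FPKM in DMSO libraries, adjusted p = 3.80e-04), among those lower. Of 17 genes of mitochondrial DNA and RNA upkeep, 9 were lower and 2 higher (median -0.23). Top1mt, the mitochondrial topoisomerase, averaged 1.44 ± 0.537 FPKM in PGE1 and 4.92 ± 0.252 FPKM in DMSO libraries, adjusted p = 1.13e-04, and Elac2, which trims the ends of mitochondrial tRNAs, averaged 8.47 ± 0.952 FPKM in PGE1 and 15.6 ± 0.158 FPKM in DMSO libraries, adjusted p = 7.90e-05. Peo1, the mitochondrial DNA helicase Twinkle, averaged 3.64 ± 0.252 FPKM in PGE1 and 5.92 ± 0.208 FPKM in DMSO libraries, adjusted p = 2.97e-04. Of 13 nuclear regulators, 6 were lower and 1 higher (median -0.02). Myc averaged 13.96 ± 6.67 FPKM in PGE1 and 68.8 ± 3.63 FPKM in DMSO libraries, adjusted p = 9.82e-05, and Pprc1, a coactivator of the PGC-1 family, averaged 4.21 ± 0.853 FPKM in PGE1 and 11.2 ± 0.902 FPKM in DMSO libraries, adjusted p = 6.61e-05. Ppargc1b, of the same family, averaged 0.519 ± 0.167 FPKM in PGE1 and 1.57 ± 0.173 FPKM in DMSO libraries, adjusted p = 6.32e-04. Its PGE1 mean lay below 1 FPKM, so Ppargc1b met the minimum of the fit only through the other treated groups. Its level is near the floor and its call is uncertain.

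Among markers, 5 of 12 cycling genes were lower after PGE1 and none higher, with sums of 514 to 567 FPKM in PGE1 and 605 to 640 FPKM in DMSO libraries. Of 9 neutrophil and granule markers, 7 were lower and none higher, with sums of 1789 to 2640 FPKM in PGE1 and 4644 to 5530 FPKM in DMSO libraries. Of 16 monocyte and macrophage markers, 10 were lower and 3 higher, with sums of 1133 to 1442 FPKM in PGE1 and 1172 to 1415 FPKM in DMSO libraries. Of 6 erythroid markers tested, 2 were higher and 3 lower; the 9 listed summed to 32.4 to 48.1 FPKM in PGE1 and 86.1 to 88.05 FPKM in DMSO libraries, with Tfrc at 23.2 ± 7.88 FPKM in PGE1 and 61.2 ± 1.52 FPKM in DMSO libraries. All 4 Y-linked genes were higher after PGE1, with sums of 34.1 to 40.3 FPKM in PGE1 and 26.2 to 29.3 FPKM in DMSO libraries. The part of these marker differences in the ribosomal protein genes was not tested.

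In PGE2 against DMSO, no mitochondrial ribosomal protein gene passed the test in limma (4 of 76 at an unadjusted p below 0.05, against 2341 of 11242 over all genes). Over all 11242 genes tested, 0.996% were higher and 4.57% lower. The median log2 difference was 0.09, against 0.00 over all genes, and 62 of 76 differences were above 0, against 5741 of 11242. With the replicate block the median was 0.04. Mrpl12 stood at 77.99 and 79.9 FPKM in the PGE2 libraries, against 73.2, 64.1 and 62.4 FPKM in the DMSO libraries (log2 difference 0.25 ± 0.11 SE, adjusted p = 0.255, 95% interval -0.01 to 0.50). Mrpl42 stood at 30.6 and 29.9 FPKM in the PGE2 libraries, against 27.8, 22.3 and 24.7 FPKM in the DMSO libraries (log2 difference 0.27 ± 0.13 SE, adjusted p = 0.285, 95% interval -0.03 to 0.58). Both genes were higher in both PGE2 libraries than in any DMSO library without passing the test. Such a lack of overlap, with PGE2 above, was found for 18 of the 76 genes and for 2810 of 11242. Without DMSO replicate 1 and PGE1 replicate 2, the libraries of the treated groups that stand apart, 8 genes were higher and none lower (median 0.14), where 6.15% of all genes were higher and 9.58% lower, an alternative chosen after seeing the data. These were Mrpl2, Mrpl13, Mrpl28, Mrpl33, Mrpl36, Mrps14, Mrps15 and Mrps24, with log2 differences from 0.26 (Mrpl28, adjusted p = 0.0432) to 0.43 (Mrpl13, adjusted p = 0.0103).

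PGE1 and PGE2 were given at the same dose and for the same time, and they form the 1 pair of compounds compared. In PGE1 against PGE2, 36 of 76 genes were lower, where 26.7% of all genes were, and 3 were higher, where 27.2% were. The median log2 difference was -0.30, against 0.02 over all genes. All PGE1 libraries lay below both PGE2 libraries in 44 of the 76 genes and above them in 4, against 3791 and 4067 of 11242. Large-subunit genes gave 24 of 49 lower and 2 higher (median -0.30), and small-subunit genes 12 of 26 lower and 1 higher (median -0.31). Bacterial homologs gave 24 of 45 lower (median -0.37) and mitochondria-specific genes 12 of 30 (median -0.18). Without PGE2 replicate 1, 26 genes were lower, where 19.3% of all genes were, and without PGE2 replicate 2, 24 were lower, where 19.1% were.

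Mrpl42 and Mrpl12 again had the largest falls. Mrpl42 stood at 14.5, 12.8 and 10.3 FPKM in the PGE1 libraries, against 30.6 and 29.9 FPKM in the PGE2 libraries (log2 difference -1.22 ± 0.13 SE, adjusted p = 1.13e-04, 95% interval -1.52 to -0.92). Mrpl12 stood at 36.2, 36.7 and 28.98 FPKM in the PGE1 libraries, against 77.99 and 79.9 FPKM in the PGE2 libraries (log2 difference -1.20 ± 0.11 SE, adjusted p = 5.31e-05, 95% interval -1.46 to -0.95). Mrps28 stood at 19.1, 18.1 and 16.01 FPKM in the PGE1 libraries, against 33.9 and 36.6 FPKM in the PGE2 libraries (log2 difference -0.96 ± 0.09 SE, adjusted p = 7.01e-05). In each, all PGE1 libraries were below both PGE2 libraries. Mrps10, which encodes uS10m, stood at 7.58, 8.82 and 5.36 FPKM in the PGE1 libraries, against 14.5 and 13.3 FPKM in the PGE2 libraries (log2 difference -0.88 ± 0.16 SE, adjusted p = 0.00204), and a processed pseudogene matches it at 97.8% over 558 bases. The falls of Mrps18b, Mrpl20, Mrpl19 and Mrps5 had log2 differences of -0.88, -0.74, -0.73 and -0.72, with adjusted p of 0.00258, 0.00387, 3.83e-04 and 6.85e-04.

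The 3 genes higher in PGE1 than in PGE2 were Mrpl14, Mrpl9 and Mrps25. Mrpl14 stood at 51.9, 67.9 and 60.5 FPKM in the PGE1 libraries, against 39.8 and 42.2 FPKM in the PGE2 libraries (log2 difference 0.53 ± 0.12 SE, adjusted p = 0.00576). Mrpl9 stood at 39.2, 46.1 and 42.5 FPKM in the PGE1 libraries, against 31.8 and 32.97 FPKM in the PGE2 libraries (log2 difference 0.38 ± 0.08 SE, adjusted p = 0.00389). Mrps25 had a log2 difference of 0.24 (adjusted p = 0.0147), which did not pass with either PGE2 library left out (adjusted p = 0.0528 and 0.124). Mrpl24, higher in PGE1 than in DMSO, did not pass against PGE2 (log2 difference 0.26, adjusted p = 0.0630, 95% interval 0.02 to 0.50). Mrpl32 stood at 20.1, 26.6 and 21.3 FPKM in the PGE1 libraries, against 23.1 and 21.7 FPKM in the PGE2 libraries, with a log2 difference of 0.01 (adjusted p = 0.965) and a 95% interval of -0.26 to 0.27. The neutrophil and granule markers summed to 1789 to 2640 FPKM in PGE1 and 6822 to 6892 FPKM in PGE2 libraries, and the cycling markers to 514 to 567 FPKM in PGE1 and 728 to 731 FPKM in PGE2 libraries. Of these markers, 8 of 9 and 8 of 12 were lower and none higher. Of 16 monocyte and macrophage markers, 11 were lower and 1 higher, with sums of 1133 to 1442 FPKM in PGE1 and 1539 to 1591 FPKM in PGE2 libraries. Of 6 LSK genes 2 were lower and 1 higher, of 6 erythroid markers 2 were lower and 2 higher, and of 4 Y-linked genes 3 were higher. Their part in these differences was not tested.

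**Figure D4:**
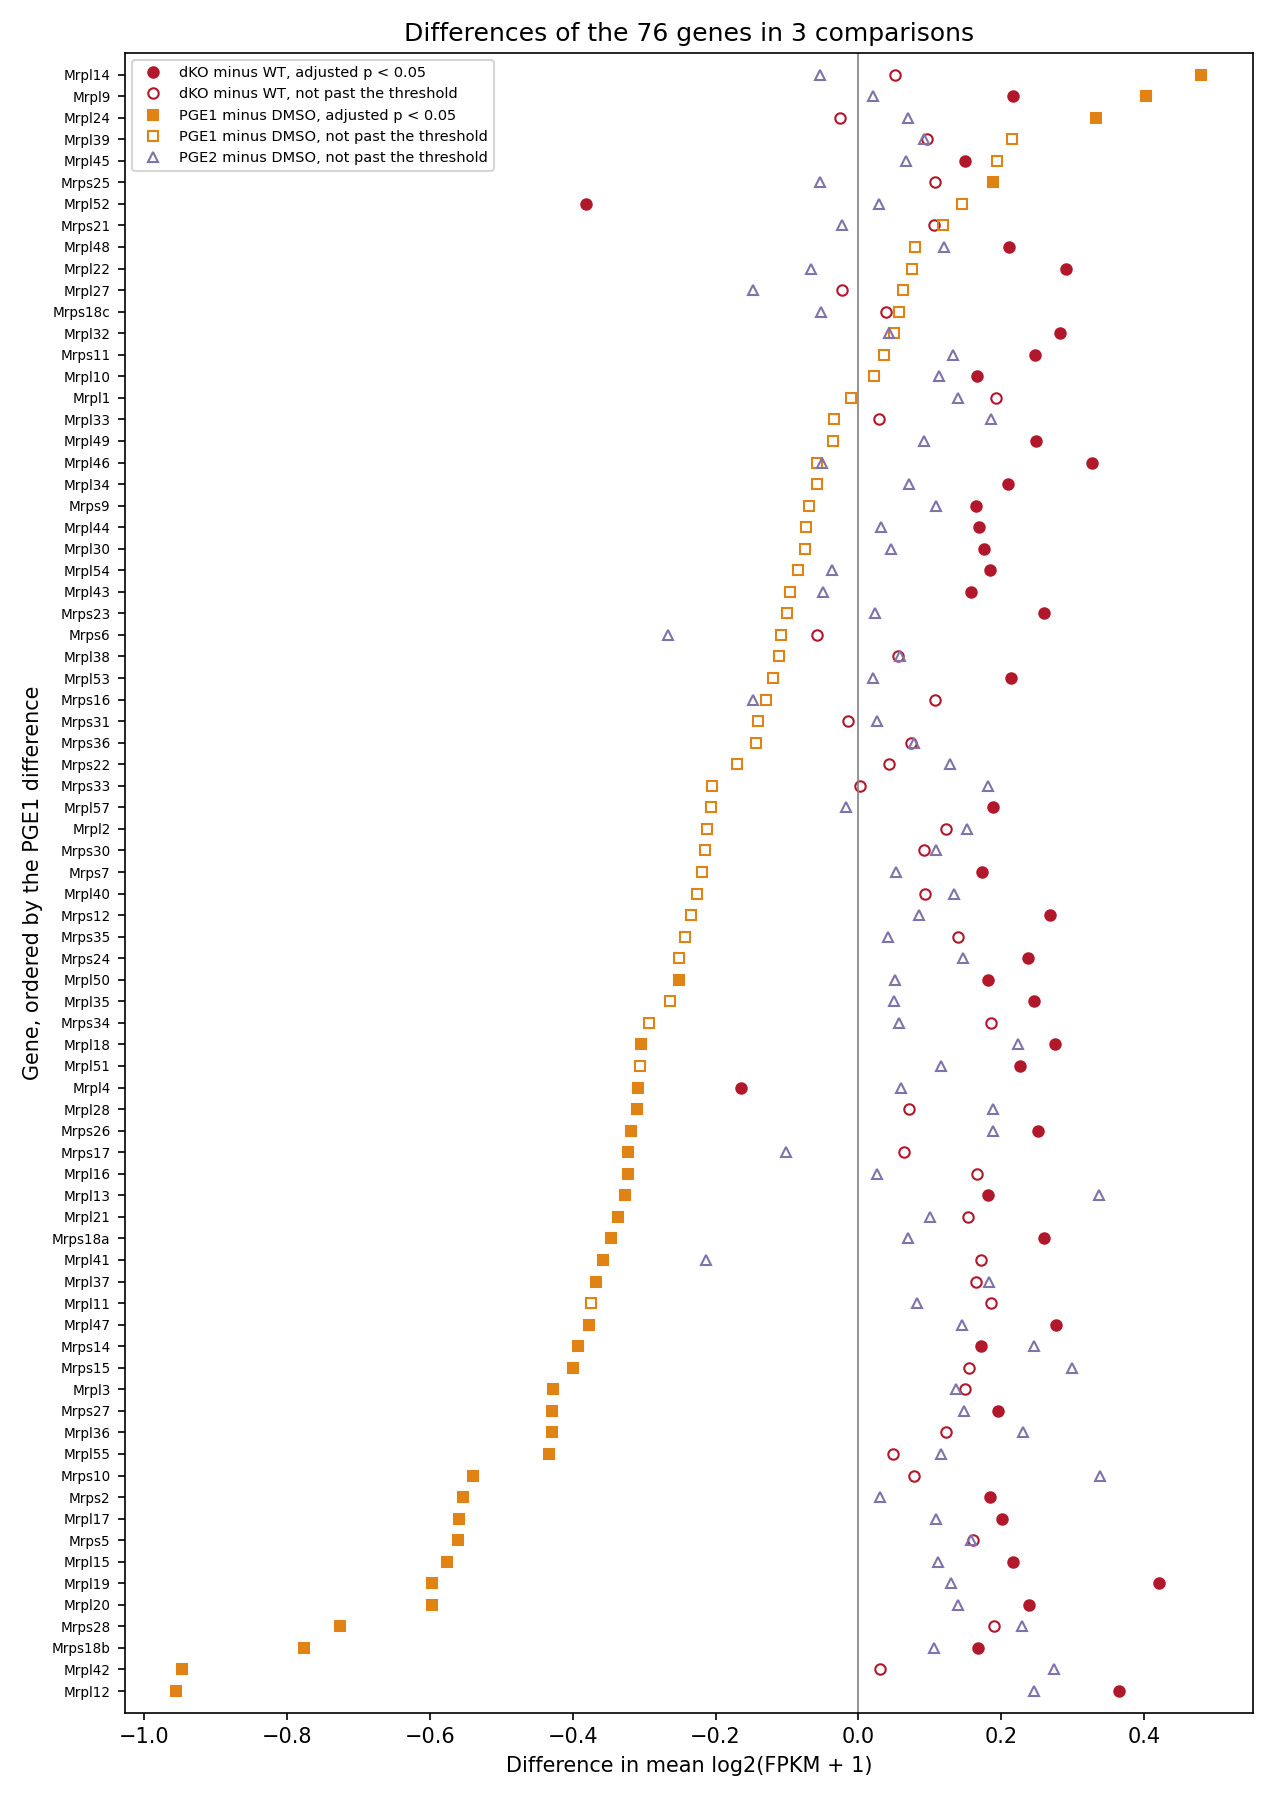
Difference in mean log2(FPKM + 1) of each of the 76 genes for dKO minus WT (circles), PGE1 minus DMSO (squares) and PGE2 minus DMSO (triangles). Filled marks passed an adjusted p of 0.05, and genes are ordered by the PGE1 difference. Most circles lie above 0 and most squares below 0, from -0.96 for Mrpl12 to 0.48 for Mrpl14, and no triangle is filled.

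The DMSO and WT libraries are both from control marrow, but they differ in the added incubation with vehicle and in depth, which cannot be told apart. Of the 76 genes, 56 were lower in DMSO, where 30.7% of 11115 genes were, and 1 was higher, where 26% were. The median log2 difference was -0.26, against -0.03 over all genes. All DMSO libraries lay below all WT libraries in 58 of the 76 genes and above them in 1, against 3895 and 3252 of 11115. Large-subunit genes gave 36 of 49 lower and none higher, and small-subunit genes 19 of 26 lower and 1 higher. Mrpl42 stood at 27.8, 22.3 and 24.7 FPKM in the DMSO libraries, against 37.8, 43.5 and 40.8 FPKM in the WT libraries (log2 difference -0.69 ± 0.08 SE, adjusted p = 2.43e-04). Mrps10 stood at 11.9, 10.6 and 9.94 FPKM in the DMSO libraries, against 17.8, 17.8 and 17.4 FPKM in the WT libraries (log2 difference -0.66 ± 0.06 SE, adjusted p = 8.19e-05). Mrps28, Mrpl13 (uL13m), Mrps15 (uS15m), Mrps14 (uS14m), Mrps27 (mS27) and Mrpl47 followed, with log2 differences of -0.62, -0.59, -0.54, -0.54, -0.52 and -0.50. All DMSO libraries were below all WT libraries in these genes. The exception among the 76 was Mrps6, which encodes bS6m. It stood at 23.01, 22.98 and 19.95 FPKM in the DMSO libraries, against 17.1, 18.2 and 18.02 FPKM in the WT libraries (log2 difference 0.29 ± 0.06 SE, adjusted p = 0.00455). The coding gene Gm49711, on the same strand, covers 19.9% of the Mrps6 exon bases and matches Mrps6 at 100% over 306 bases. The Mrps6 count is therefore uncertain. All 12 cycling markers were lower in DMSO, with sums of 605 to 640 FPKM in DMSO and 870 to 874 FPKM in WT libraries, and Myc averaged 68.8 ± 3.63 FPKM in DMSO and 100.03 ± 1.62 FPKM in WT libraries, adjusted p = 5.59e-05 (SD, n = 3 each). Myc is from the list of nuclear regulators, of which 13 were tested. Of these, 2 were lower, 1 was higher and 10 did not pass (median log2 difference -0.10). Of 9 neutrophil and granule markers 6 were lower and 2 higher, with sums of 4644 to 5530 FPKM in DMSO and 6935 to 7274 FPKM in WT libraries. Of 6 LSK genes 4 were lower and 1 higher, with sums of 106 to 116 FPKM in DMSO and 144 to 148 FPKM in WT libraries. Of 16 monocyte and macrophage markers 5 were higher and 4 lower, and of 6 erythroid markers 2 were higher and 1 lower. Their part in these differences was not tested.

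The 3 Mrps18 paralogs encode proteins at different places in the ribosome. Mrps18a, whose product mL66 is in the large subunit, stood at 50.6, 51.8 and 52.5 FPKM in the dKO libraries, against 41.9, 42.9 and 44.1 FPKM in the WT libraries (log2 difference 0.26 ± 0.04 SE, adjusted p = 0.00117). It stood at 30.7, 30.9 and 26.6 FPKM in the PGE1 libraries, against 41.2, 34.7 and 37.1 FPKM in the DMSO libraries (log2 difference -0.35 ± 0.08 SE, adjusted p = 0.00772). Mrps18b, whose product mS40 is in the small subunit, stood at 24.9, 25.4 and 23.1 FPKM in the dKO libraries, against 21.00, 22.8 and 21.3 FPKM in the WT libraries (log2 difference 0.17 ± 0.05 SE, adjusted p = 0.0326), which did not pass with WT replicate 1 (adjusted p = 0.113), WT replicate 3 (0.108) or dKO replicate 2 (0.0931) left out. Mrps18c, the paralog that structures place at the bacterial S18 site as bS18m, passed in none of the 5 comparisons. It stood at 42.4, 45.7 and 46.2 FPKM in the dKO libraries, against 42.7, 45.7 and 42.4 FPKM in the WT libraries (log2 difference 0.04, adjusted p = 0.553). It stood at 36.9, 52.2 and 41.98 FPKM in the PGE1 libraries, against 45.3, 39.4 and 40.2 FPKM in the DMSO libraries (log2 difference 0.06, adjusted p = 0.711, 95% interval -0.21 to 0.32). No test between the paralogs was run.

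Mrpl3, Mrpl44, Mrps16 and Mrps22 are genes whose human counterparts cause combined respiratory chain deficiency when mutated. In dKO against WT, Mrpl44 was higher (log2 difference 0.17, adjusted p = 0.0217), which did not pass in 5 of the 6 fits that leave out 1 library. Mrpl3, Mrps16 and Mrps22 did not pass, with log2 differences of 0.15 (adjusted p = 0.0625), 0.11 (adjusted p = 0.296) and 0.04 (adjusted p = 0.546). In PGE1 against DMSO, Mrpl3 fell (log2 difference -0.43, adjusted p = 6.62e-04), and Mrpl44, Mrps16 and Mrps22 had log2 differences of -0.07 (adjusted p = 0.620), -0.13 (adjusted p = 0.520) and -0.17 (adjusted p = 0.0738). Against the 2 PGE2 libraries, Mrpl3 (-0.56, adjusted p = 2.35e-04) and Mrps22 (-0.30, adjusted p = 0.0115) were lower after PGE1, and Mrpl44 and Mrps16 did not pass. In DMSO against WT, Mrpl3, Mrpl44 and Mrps22 were lower, at -0.40, -0.31 and -0.33, and Mrps16 did not pass. Mrps30 stood at 23.1, 21.8 and 19.2 FPKM in the PGE1 libraries, against 26.9, 23.98 and 23.8 FPKM in the DMSO libraries and missed the threshold (log2 difference -0.21 ± 0.08 SE, adjusted p = 0.0545), though its groups did not overlap. Mrps30 was lower in PGE1 against PGE2 (log2 difference -0.32, adjusted p = 0.0150) and in DMSO against WT (log2 difference -0.26, adjusted p = 0.00541). Mrps36, the adaptor of the 2-oxoglutarate dehydrogenase complex, stood at 3.06, 2.79 and 3.11 FPKM in the dKO libraries, against 3.37, 2.68 and 2.38 FPKM in the WT libraries (log2 difference 0.07, adjusted p = 0.588). It has 4 pseudogene copies and few reads, and of the 5 comparisons it passed in 1, DMSO against WT (log2 difference -0.39, adjusted p = 0.0149).

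The dKO and WT libraries share no library with the PGE1 and DMSO groups, so the calls of the 2 comparisons may be counted together. Of the 38 genes higher in dKO, 15 (39.5%) were also lower after PGE1, and these 15 were 50% of the 30 genes lower after PGE1. The share of dKO rises among genes that PGE1 lowered was thus that of the whole family, 50%. The 15 genes were Mrpl12, Mrpl13, Mrpl15, Mrpl17, Mrpl18, Mrpl19, Mrpl20, Mrpl47, Mrpl50, Mrps2, Mrps14, Mrps18a, Mrps18b, Mrps26 and Mrps27. Tcp1 and Mtbp, on the opposite strand, cover 10.1% of Mrpl18 and 4.16% of Mrpl13 exon bases. Both were also past the threshold for a rise in dKO and a fall after PGE1. Gcfc2 and Ndufb5, which overlap Mrpl19 and Mrpl47, passed in neither comparison. Over the 76 genes, Pearson's r between the log2 differences of dKO against WT and PGE1 against DMSO was -0.26, a description across genes that are not independent. Mrpl9 was higher in both comparisons, at 0.22 (adjusted p = 0.0180) in dKO and 0.40 after PGE1, and Mrpl4 was lower in both, at -0.16 in dKO and -0.31 after PGE1.

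On the genome the genes lie on 17 chromosomes, with at most 10 on one, chromosome 11. A head-to-head neighbour on the opposite strand, with a start within 1000 bases, was found for 23 of 76 genes (30.3%), against 13.4% of 10129 coding genes averaging 1 FPKM or more, in the GENCODE annotation. Of 11 such neighbours, counting only those tested, of genes that were higher in dKO, 3 were higher too, 1 was lower and 7 did not pass. Of all genes tested, 18% were higher and 22.9% lower in dKO. Of 7 tested neighbours of genes that were lower after PGE1, 3 were higher, 1 was lower and 3 did not pass, where 23.6% of all genes were higher and 25.5% lower. These counts are too small to set apart from the shares of all genes, and no test was run. Mrps18b and its neighbour Ppp1r10, a regulatory subunit of protein phosphatase 1, went opposite ways after PGE1, at log2 differences of -0.78 for Mrps18b and 0.27 for Ppp1r10, both past the threshold. Mrps27 and its neighbour Ptcd2 both fell, each at -0.43 and past the threshold. The median GC content of the promoters was 58.8% in genes higher in dKO and 57.7% in the other members, 58.3% in genes lower after PGE1 and 57.8% in the other members, and 61% in all genes averaging 1 FPKM or more.

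Over the 67 genes with a RefSeq promoter, 7 (10.4%) held the NRF1 core, against 4.75% of the 8381 promoters of genes averaging 1 FPKM or more. The YY1 letters stood in 8 (11.9%) against 4.07%, and the ETS letters CCGGAAGT, bound by GABPA, in 12 (17.9%) against 10.05%. The E-box CACGTG, bound by Myc among other factors, stood in 5 (7.46%) against 12.3%, and TATAAA in 5 (7.46%) against 8.15%. No motif contains another, both strands were read, and the shares carry no test. The NRF1 core stood in Mrpl9, Mrpl10, Mrpl17, Mrpl22, Mrpl32, Mrpl39 and Mrps18b. Of these, all but Mrpl39 passed the test for a rise in dKO, so that the core stood in 6 of 34 promoters (17.6%) of genes higher in dKO and in 1 of 33 (3.03%) of the others. After PGE1 it stood in 2 of 25 promoters (8%) of genes that fell and in 5 of 42 (11.9%) of the others. Of the other 4 motifs, the YY1 letters stood in 5 of 34 promoters of genes higher in dKO and 3 of 33 of the others, the ETS letters in 6 and 6, the E-box in 1 and 4, and TATAAA in 3 and 2. For genes that fell after PGE1 and the others, the counts out of 25 and 42 were 5 and 3 for YY1, 4 and 8 for ETS, 3 and 2 for the E-box, and 2 and 3 for TATAAA. NRF1 had the widest gap of the 5 in dKO and is not set apart by a test.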

How the data were processed

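Libraries were grouped by their titles. Per the labels' protocols, cells were sorted and total RNA was taken on Qiagen columns, and per the submitters' processing notes CASAVA 1.8, TopHat, Cufflinks and the mm9 build were used. The deposited values are FPKM per gene, normalized by the authors. No source used here gives aligner settings, the annotation or the use of strand. All 19057 genes with reads gave whole multiples of 1 read's FPKM (within 0.001 reads), from which 19.04 to 33.8 M reads per library in the FPKM denominator, and the smaller number in genes, were computed. This gives the reads behind a value and was not used in tests.

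The mitochondrial ribosomal protein genes and all lists were chosen with earlier results of these data known. limma 3.58.1 in R 4.3.3 was run on log2(FPKM + 1), which understates changes of low genes, over genes averaging 1 FPKM or more in the libraries of the fit, with an intensity trend, two-sided, and with Benjamini-Hochberg adjustment over all genes tested. Separate fits held dKO with WT, the 3 treated groups, and DMSO with WT. Where 1 PGE2 library is left out, the other is assumed to vary like the other groups. Genes were named by rule: the 8 largest rises and falls without overlap per comparison, up to 5 against the majority, the 3 highest and lowest levels, and a set list of 13 genes. For the largest rises and falls the lack of overlap was thus fixed by the rule and adds no support. Genes from the pathway lists were those with the 3 smallest adjusted p among calls, in dKO against WT and PGE1 against DMSO. In DMSO against WT only Myc is given from these lists. The 8 genes named for PGE2 without 2 libraries, the genes with the NRF1 core and those that overlap between comparisons were named after their values were seen. Promoters came from RefSeq (GRCm38.p6; 67 of 76 genes matched), overlaps, neighbours and copies (blastn 2.17.0, at least 95% identity over 200 bases) from GENCODE on GRCm38. Files hold symbols only, so no mm9 coordinate is given. Protein sequences were not analysed here. The fits were also run on simulated independent reads with the same dispersion for every gene and no library that stands apart. The libraries here differ more in spread, so this run does not show how many of their calls are false. Alternatives were a pseudocount of 0.1, a minimum of 5 FPKM, no minimum, quantile and median-of-ratios scaling, no trend, a replicate block, and each library left out.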

Additional observations from a re-analysis of the deposited data

How the results depend on the processing

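No median over the members changed direction under any alternative run, and neither did any named member that passed the threshold in the main fit. Named members that did not pass were not followed through the alternatives. Directions over all genes were less stable. dKO had more lower than higher calls (1930 higher, 2451 lower), but 2783 higher and 1843 lower after quantile normalization and 1768 higher and 1465 lower with a minimum of 5 FPKM. The majority direction of all calls also changed under at least 1 alternative in PGE1 against DMSO, PGE1 against PGE2 and DMSO against WT. All-gene medians lay between -0.06 and 0.06 in all comparisons and alternatives, and changed sign under at least 1 alternative in all comparisons but PGE1 against PGE2; in dKO they moved to 0.06 after quantile normalization, against -0.01 as reported. The number of members lower in dKO was 1 in place of 2 with no minimum, after median-of-ratios scaling, without the intensity trend and with the replicate block. Left-out libraries gave 18 to 55 members higher and 1 to 2 lower in dKO against WT, 2 to 5 higher and 20 to 46 lower in PGE1 against DMSO, 2 to 5 higher and 24 to 46 lower in PGE1 against PGE2, and 40 to 69 lower with 1 higher in DMSO against WT. PGE2 against DMSO gave 0 in each of those fits, and 8 higher without both DMSO replicate 1 and PGE1 replicate 2, chosen after seeing the data. Over all alternatives, member medians of the log2 difference ranged from 0.13 to 0.22 for dKO, -0.30 to -0.15 for PGE1 against DMSO, -0.39 to -0.25 for PGE1 against PGE2, 0.04 (replicate block) to 0.14 for PGE2 and -0.33 to -0.24 for DMSO against WT. Same-numbered libraries did not deviate together in a steady way (correlations of their deviations from -0.25 to 0.25). Deviations from means of 2 or 3 libraries cannot settle whether replicate numbers pair the libraries, and no source used here says so. With the replicate block, members higher and lower were 35 and 1 for dKO, 3 and 34 for PGE1 against DMSO, 3 and 31 for PGE1 against PGE2, 0 and 0 for PGE2, and 1 and 56 for DMSO against WT. Over all genes, the block gave 26 higher and 243 lower for PGE2, against 112 and 514, and quantile normalization 182 higher. Fits without 1 DMSO or PGE1 library gave 24 to 358 higher and 211 to 860 lower. Fits without 1 PGE2 library, which leave 1 in that group, fell below both ranges, with a member median of 0.09 in each. With both libraries that stand apart left out, the counts were 689 and 1074. In dKO, left-out libraries gave 1202 to 2449 genes higher, against 1930, and a minimum of 5 FPKM 1465 lower, against 2451. Quantile normalization moved the share of higher among all calls in dKO to 60.2%, against 44.1%, with 35 members higher and 3 lower. The causes were not tested. The planned description of protein sequences was not run. Depth limits the lowest members, such as Mrps36 with 13 reads in 1 library.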
